A study of Mus musculus with 18 samples.

Results

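Transcripts of 38 genes of DNA replication and mitosis were followed in whole mouse testis. The genes came from a list of 44 (45 symbols, of which Cdc2a is an older name of Cdk1), and a gene was tested if 1 of its probes was detected at p below 0.01 on at least 4 of 18 arrays. The list had 93 named probes among the 45281 of the array, and 63 of them passed. The 38 genes stand among 10798 tested in all. Pola1, Prim1, Ccnb2 and Bub1 had probes that did not pass, and Ccnb1 and Mki67 had no named probe. Of the 38 genes, 34 were detected on every array, and the exceptions were Pcna (13 arrays), Rfc3 (12), Tk1 (12) and Ccne1 (6). The detection rule counted arrays of any group, and Ccne1 met it through Lhr null, which held 4 of its 6 detected arrays. Each gene is represented by its brightest probe.

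The mice were 12 weeks old, of a cross between FVB/N and C57/BL6. The 4 groups were wild type (4 arrays), Fshr mutant (4 arrays), Lhr null (5 arrays) and Fshr mutant/Lhr null, which carries both alleles and is called the double mutant here (5 arrays). Fshr encodes the receptor for follicle stimulating hormone, which acts on Sertoli cells, and Lhr (Lhcgr) encodes the receptor for luteinizing hormone, which drives testosterone synthesis in Leydig cells. In the column headers the mutant allele is Fshr-CAM; the effect of the mutation and the promoter behind it are not stated in the sources used here. Whether the arrays of a group came from separate animals is not stated, and p-values then reflect only the spread between arrays, which may be technical.

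In a replicating cell the origin recognition complex, Cdc6 and Cdt1 load a ring of Mcm proteins on DNA, the Gins proteins and Mcm10 help to make it an active helicase, and polymerases copy the opened strands with the sliding clamp Pcna, which the Rfc complex loads. Cyclins with their kinases start this phase, and Cdk1, the Aurora and Polo kinases, the checkpoint kinase Bub1b and the anaphase activator Cdc20 then run the division. In the testis of an adult mouse mitosis and premeiotic DNA synthesis take place in spermatogonia and early spermatocytes, while spermatids no longer replicate their DNA. Members of the E2F family bind promoters of many replication genes, and a CHR element with CCAAT boxes is found in many promoters of genes of late phases of the cycle.

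Promoter windows are shown for 4 genes: in the replication classes and in the mitotic classes, the member with a window that rose most in Lhr null and the one with the lowest difference. The windows run from 250 bases before to 50 bases after the start of the gene, on the gene's own strand, from RefSeq on GRCm38.p6. Capitals mark matches on either strand to the E2F-type letters, the CHR letters and CCAAT, and matches can overlap. An E2F-type match was any of TTCCCGC, the variant TTCGCGC, the variant TTGCCGC and the variant TTGGCGC. A CHR match was TTTGAA or else TTCGAA. The window of Mcm5 is chr8:75109259-75109558 (plus strand), that of Mcm7 is chr5:138171834-138172133 (minus strand, 1 of 2 windows), that of Top2a is chr11:99024140-99024439 (minus strand) and that of Plk1 is chr7:122159185-122159484 (plus strand).
Mcm5: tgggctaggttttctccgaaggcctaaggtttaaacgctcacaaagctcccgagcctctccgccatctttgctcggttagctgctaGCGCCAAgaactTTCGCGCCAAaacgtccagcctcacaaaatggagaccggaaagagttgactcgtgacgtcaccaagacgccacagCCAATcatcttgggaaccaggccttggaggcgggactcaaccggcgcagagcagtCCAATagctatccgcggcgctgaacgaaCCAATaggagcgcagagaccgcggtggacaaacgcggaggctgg
Mcm7: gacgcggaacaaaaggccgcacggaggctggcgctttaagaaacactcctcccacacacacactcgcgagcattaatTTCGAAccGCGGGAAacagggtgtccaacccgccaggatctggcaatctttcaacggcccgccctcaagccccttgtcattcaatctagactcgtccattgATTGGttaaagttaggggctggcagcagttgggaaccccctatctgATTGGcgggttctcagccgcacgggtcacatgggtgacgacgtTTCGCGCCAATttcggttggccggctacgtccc
Top2a: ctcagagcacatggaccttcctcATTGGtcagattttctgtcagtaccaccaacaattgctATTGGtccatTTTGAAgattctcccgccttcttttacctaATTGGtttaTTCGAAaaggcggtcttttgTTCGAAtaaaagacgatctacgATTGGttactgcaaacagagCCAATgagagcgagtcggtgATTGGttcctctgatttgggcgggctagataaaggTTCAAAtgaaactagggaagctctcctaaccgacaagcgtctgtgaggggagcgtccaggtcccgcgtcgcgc
Plk1: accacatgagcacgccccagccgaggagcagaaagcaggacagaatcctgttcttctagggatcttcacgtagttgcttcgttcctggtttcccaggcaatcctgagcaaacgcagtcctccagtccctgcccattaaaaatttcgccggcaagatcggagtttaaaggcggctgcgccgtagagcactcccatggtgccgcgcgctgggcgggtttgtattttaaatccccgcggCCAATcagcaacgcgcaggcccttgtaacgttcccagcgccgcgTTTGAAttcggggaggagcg
Mcm5 and Mcm7, both subunits of the Mcm ring, each held 3 E2F-type matches and 3 CCAAT matches, and Mcm7 also held 1 CHR match. The window of Top2a, the DNA topoisomerase of chromosome condensation and segregation, held no E2F-type match, 4 CHR matches and 6 CCAAT matches. That of Plk1, the Polo kinase of mitotic entry, held no E2F-type match, 1 CHR match and 1 CCAAT match. A match describes letters and shows no binding.

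A window was at hand for 30 of the 38 tested genes. E2F-type letters stood in 18 of 30 windows (60%) of the replication genes and in 1 of 8 windows (12.5%) of the mitotic genes and cyclins, against 9.57% of all 32851 windows of the table. CHR letters stood in 6 of 30 (20%) and 6 of 8 (75%) of these windows, against 19.2% of all. CCAAT stood in 16 of 30 (53.3%) and 6 of 8 (75%), against 37.4% of all. Of 15 replication genes with E2F-type letters in a window, 11 rose in Lhr null, and their median log2 difference was 0.51. Of 7 without them, 6 rose, and their median was 0.78. Over the whole array 44.2% of genes rose, and the median was 0.21.

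Between 15482 and 18950 probes were detected per array. The level of Fshr was used to check the labels. On its brightest probe it lay at a log2 intensity of 5.17 to 5.88 in wild type, 8.47 to 8.77 in Fshr mutant and 7.60 to 8.37 in Lhr null arrays. In the double mutant 4 arrays lay at 8.48 to 9.27, and 1 array (the library labelled Fshr mutant/Lhr null replicate 2) lay at 5.71, inside the wild type range. On a dimmer probe of Fshr only Lhr null stood apart, at 7.92 to 8.52 against 5.72 to 6.39 in wild type, 5.39 to 5.94 in Fshr mutant and 5.45 to 6.27 in the double mutant, with replicate 2 at 5.68. The check of this label by Fshr therefore rests on 1 probe, and a further probe was detected on no array. The summed intensity of 6 Leydig cell markers was 11495 on that array and 3468 to 4749 on the other 4. Results on the double mutant are therefore given with and without it. For Lhcgr no probe is named, and the loss of its transcript in Lhr null arrays was not examined.

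In Lhr null testes 26 of the 38 genes rose against wild type, 2 fell (Pole and Plk1) and 10 did not pass the test (limma, Benjamini-Hochberg adjusted p under 0.05 over all genes tested). The median log2 difference was 0.60, with single genes between -0.33 and 1.68. The background is wide: 71.2% of the genes tested over the whole array passed, 44.2% upwards and 27% downwards, and the median difference of all was 0.21. Of the 38 genes, 8 rose by at least 2-fold, against 9.45% of all genes. In 23 genes every Lhr null array lay above every wild type array, against 35.3% of all genes, and in 1 every Lhr null array lay below, against 21.9%. The upward shift of all genes depends on the scaling. With cyclic loess in place of quantile normalization the median of all genes was 0.02 and that of the 38 genes 0.38, and without normalization between arrays these medians were 0.12 and 0.47. The members' median thus stood above that of all genes by 0.39, 0.35 and 0.35 under the 3 scalings. Higher calls made up 62% of all calls over the table, 50.6% with cyclic loess and 53.3% without normalization, and with cyclic loess 21 members were higher and 3 lower.

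**Figure D1:**
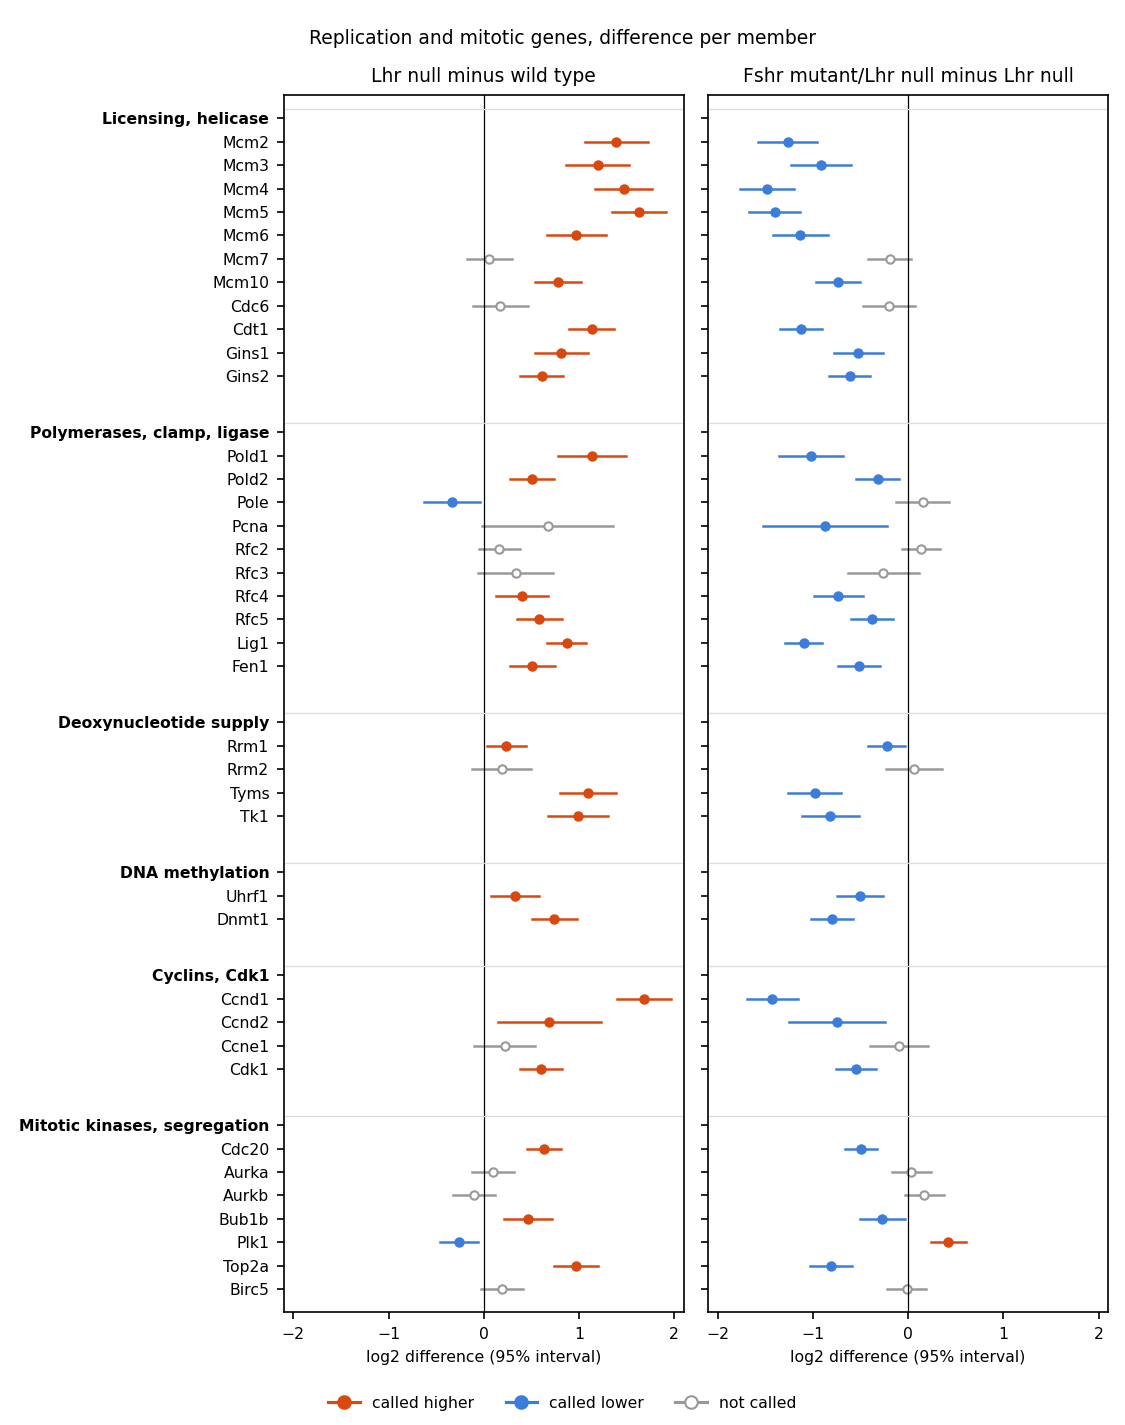
Each point is the log2 difference of 1 gene with its 95% confidence interval, for Lhr null minus wild type (left) and Fshr mutant/Lhr null minus Lhr null (right), with filled points for genes called at an adjusted p under 0.05. The replication genes lie mostly right of 0 on the left and left of 0 on the right (20 of 27 called higher, then 21 of 27 called lower), while several mitotic kinases lie near 0 in both. Over the whole array 44.2% of genes were called higher in the left comparison and 45% lower in the right. Both panels use the same Lhr null arrays, and Ccne1 was not detected in wild type.

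Cell type markers moved in the same comparison, in which 44.2% of all genes rose and 27% fell. The RNA is from whole testis, so fewer or more cells of a type and less or more RNA per cell cannot be told apart. Of 10 tested spermatogonial markers 9 rose (median 0.86), and their summed intensity was 2563 to 2801 in wild type and 5226 to 7647 in Lhr null. Gfra1, Dmrt1 and Nanos3, also markers of these cells, were detected on no array. All 12 tested markers of elongating spermatids fell (median -2.70), with summed intensities of 118852 to 132455 and 26353 to 69297. All 11 of round spermatids and all 6 of Leydig cells fell, and 7 of 11 of spermatocytes rose. Of 11 Sertoli cell markers 8 rose and 1 fell, with log2 differences from -2.20 to 2.28 (median 1.22). Their summed intensity was 24095 to 26216 in wild type and 42231 to 49052 in Lhr null. Of 4 markers of myoid cells and smooth muscle 3 rose, with sums of 2749 to 3251 and 5477 to 7824. Of 7 macrophage markers 4 fell. Of 9 ribosomal and housekeeping genes 6 rose and 1 fell (median 0.53). The part of these changes in the levels of the replication genes was not tested.

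The helicase and its loading factors changed most. Of 11 genes 9 rose and 2 (Mcm7 and Cdc6) did not pass, with a median log2 difference of 0.97, where 44.2% of all genes rose. Mcm5 had log2 intensities of 8.50, 8.55, 8.57 and 8.72 on the wild type arrays and 9.77, 10.17, 10.47, 10.22 and 10.46 on the Lhr null arrays. It rose by 1.63 ± 0.13 (SE) on the log2 scale, 3.09-fold, with an adjusted p of 1.86e-08. The Fshr mutant arrays, at 8.56, 8.61, 8.65 and 8.97, overlapped wild type, and the double mutant arrays, at 8.96, 8.65, 8.90, 8.61 and 8.96, lay below all Lhr null arrays. Mcm4, another subunit of the ring, lay at 8.31, 8.44, 8.68 and 8.46 in wild type and at 9.34, 10.29, 10.20, 9.92 and 9.93 in Lhr null. It rose 2.76-fold (1.47 ± 0.14, SE, adjusted p = 1.04e-07). The ranges did not overlap, and replicate 1 was the lowest of the Lhr null arrays. Mcm4 lay at 8.47, 8.44, 8.48 and 8.40 in Fshr mutant and at 8.64, 8.38, 8.42, 8.34 and 8.49 in double mutant arrays, both across the wild type range.

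Mcm2 rose 2.62-fold, Mcm3 2.29-fold and Mcm6 1.96-fold (adjusted p of 4.65e-07, 2.57e-06 and 1.24e-05). Mcm7, the remaining subunit of the ring, did not pass. Its wild type arrays lay at 9.06, 8.86, 9.04 and 9.15 and its Lhr null arrays at 9.22, 9.05, 8.98, 9.21 and 8.96, a difference of 0.06 ± 0.11 (SE, adjusted p = 0.656) with a 95% interval of -0.18 to 0.30. That interval ends below the lowest interval bound of the other 5 subunits, 0.66 for Mcm6. The second probe of Mcm7 differed by 0.17 and did not pass either. Cdt1, which brings the ring to origins, lay at 6.38, 6.68, 6.33 and 6.37 in wild type and at 7.39, 7.46, 7.70, 7.52 and 7.79 in Lhr null. It rose 2.19-fold (1.13 ± 0.11, SE, adjusted p = 1.07e-07), and its groups did not overlap. Cdc6, its partner in loading, differed by 0.17 ± 0.14 (SE, adjusted p = 0.273), and its groups overlapped. Mcm10 (0.78 ± 0.12, SE), Gins1 (0.81 ± 0.13, SE) and Gins2 (0.61 ± 0.11, SE), which act in helicase activation, all rose with no overlap.

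Among the polymerases, the clamp and its loader, the ligase and the flap nuclease, 6 of 10 genes rose, 1 fell and 3 did not pass, and the median difference was 0.51. Over the whole array 44.2% of genes rose and 27% fell, and the median was 0.21. Pold1, the catalytic subunit of polymerase delta, lay at 8.18, 8.26, 8.08 and 8.11 in wild type and 8.78, 9.03, 9.84, 9.55 and 9.27 in Lhr null. It rose 2.2-fold (1.14 ± 0.17, SE, adjusted p = 1.1e-05), with no overlap and a wide spread among the Lhr null arrays. Its partner Pold2 rose by 0.51 ± 0.11 (SE). Pole, the catalytic subunit of polymerase epsilon, lay at 8.55, 8.47, 7.95 and 8.46 in wild type and 7.80, 7.86, 8.15, 8.34 and 7.97 in Lhr null. It fell by 0.33 on the log2 scale (SE 0.14, adjusted p = 0.0428), with overlapping groups, and it did not pass without normalization between arrays (adjusted p = 0.134), without the detection filter (0.0638), with only the groups compared (0.084) or with the replicate number as a block (0.0744).

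Lig1, the ligase that seals Okazaki fragments, lay at 7.91, 7.66, 7.82 and 7.92 in wild type and at 8.54, 8.69, 8.53, 8.95 and 8.75 in Lhr null. It rose 1.83-fold (0.87 ± 0.10, SE, adjusted p = 5.01e-07), and its groups did not overlap. Fen1, the flap nuclease of the same fragments, rose by 0.51 ± 0.11 (SE). Pcna, the clamp, was dim and variable: 5.97, 5.48, 5.93 and 5.74 in wild type and 6.46, 5.91, 6.40, 7.69 and 5.79 in Lhr null. Its difference of 0.67 ± 0.33 (SE, adjusted p = 0.0767) did not pass, and the array at 7.69 lay far above the others of its group. In the clamp loader Rfc5 (0.58 ± 0.11, SE) and Rfc4 (0.40 ± 0.13, SE) rose, and Rfc3 (0.33 ± 0.19, SE) and Rfc2 (0.16 ± 0.10, SE) did not pass. Rfc4 did not pass with cyclic loess (0.18, adjusted p = 0.184), without normalization between arrays (0.23) or with the mean of its probes (0.30).

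Of the 4 genes of deoxynucleotide supply, 3 rose, against 44.2% of all genes. Tyms, thymidylate synthase, lay at 6.51, 6.93, 6.72 and 6.84 in wild type and at 7.70, 8.03, 8.09, 7.55 and 7.86 in Lhr null, and rose 2.13-fold (1.09 ± 0.14, SE, adjusted p = 1.75e-06). All Lhr null arrays lay above all wild type arrays. Tk1, the thymidine kinase of the salvage route, rose by 0.99 ± 0.15 (SE) and was detected on 3 of 4 wild type and 5 of 5 Lhr null arrays. The ribonucleotide reductase subunits moved little: Rrm1 rose by 0.24 ± 0.10 (SE, adjusted p = 0.0366), which cyclic loess took to 0.04, and Rrm2 differed by 0.19 ± 0.15 (SE, adjusted p = 0.275). A second probe of Rrm1, detected on all 18 arrays, differed by -0.0016 and was not called (limma adjusted p = 0.995). Dnmt1, the maintenance DNA methyltransferase, lay between 7.68 and 8.03 on the 4 wild type arrays and at 8.38, 8.73, 8.85, 8.76 and 8.50 in Lhr null, without overlap, and rose by 0.74 ± 0.11 (SE, adjusted p = 1.24e-05). Uhrf1, which brings Dnmt1 to replicated DNA, rose by 0.33 ± 0.12 (SE, adjusted p = 0.0212), but did not pass with cyclic loess (0.09) and differed by -0.082 without normalization between arrays.

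Ccnd1, cyclin D1 of the G1 phase, had the largest difference of the 38 genes. It lay at 7.01, 6.83, 6.85 and 7.03 in wild type and at 8.14, 8.55, 8.55, 8.92 and 8.87 in Lhr null, and rose 3.2-fold (1.68 ± 0.13, SE, adjusted p = 1.47e-08). The lowest Lhr null array stood above all 13 arrays of the other groups, which ran from 6.83 to 7.34. Ccnd2, cyclin D2, rose by 0.69 ± 0.26 (SE, adjusted p = 0.023) with overlapping groups, and did not pass with cyclic loess (0.45, adjusted p = 0.11). Ccne1, cyclin E1, was detected on 0 of 4 wild type and 4 of 5 Lhr null arrays, at levels near background. It did not pass, and no difference is given against a group in which it was not detected. Cdk1, the kinase of mitotic entry, lay at 9.25, 9.12, 9.34 and 9.25 in wild type and 9.76, 9.77, 9.69, 9.81 and 10.15 in Lhr null, and rose by 0.60 ± 0.11 (SE, adjusted p = 6.63e-05) without overlap.

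The kinases and segregation factors of mitosis were mixed: of 7 genes 3 rose, 1 fell and 3 did not pass, with a median of 0.19, close to the 0.21 of all genes. Over the whole array 44.2% of genes rose and 27% fell. Top2a lay at 8.92, 9.05, 9.01 and 8.89 in wild type and 9.61, 10.12, 10.18, 9.69 and 10.07 in Lhr null, and rose 1.96-fold (0.97 ± 0.11, SE, adjusted p = 4.68e-07). Its groups did not overlap. Cdc20 rose by 0.63 ± 0.08 (SE, adjusted p = 3.18e-06), also without overlap, and Bub1b by 0.46 ± 0.12 (SE, adjusted p = 0.00247), which cyclic loess took to 0.26 (adjusted p = 0.0625). The second probe of Bub1b differed by 0.22 and was not called (limma adjusted p = 0.186). Plk1 lay at 10.48, 10.45, 10.41 and 10.52 in wild type and 10.31, 10.31, 10.02, 10.21 and 10.16 in Lhr null. It fell by 0.26 (SE 0.09, adjusted p = 0.0191), and every Lhr null array lay below every wild type array. Leaving out wild type replicate 4, 0 of the 38 genes were called lower, so neither Plk1 nor Pole passed there. Aurka, the Aurora kinase of the spindle poles, lay at 10.98, 11.22, 11.08 and 10.91 and 11.22, 11.18, 11.16, 10.97 and 11.18, a difference of 0.10 ± 0.10 (SE) with overlap. Aurkb, the Aurora kinase of the chromosomal passenger complex, differed by -0.10 ± 0.10 (SE) and Birc5, its partner survivin, by 0.19 ± 0.10 (SE), neither past the test. With cyclic loess Aurkb was called lower (-0.33, adjusted p = 0.00696).

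**Figure D2:**
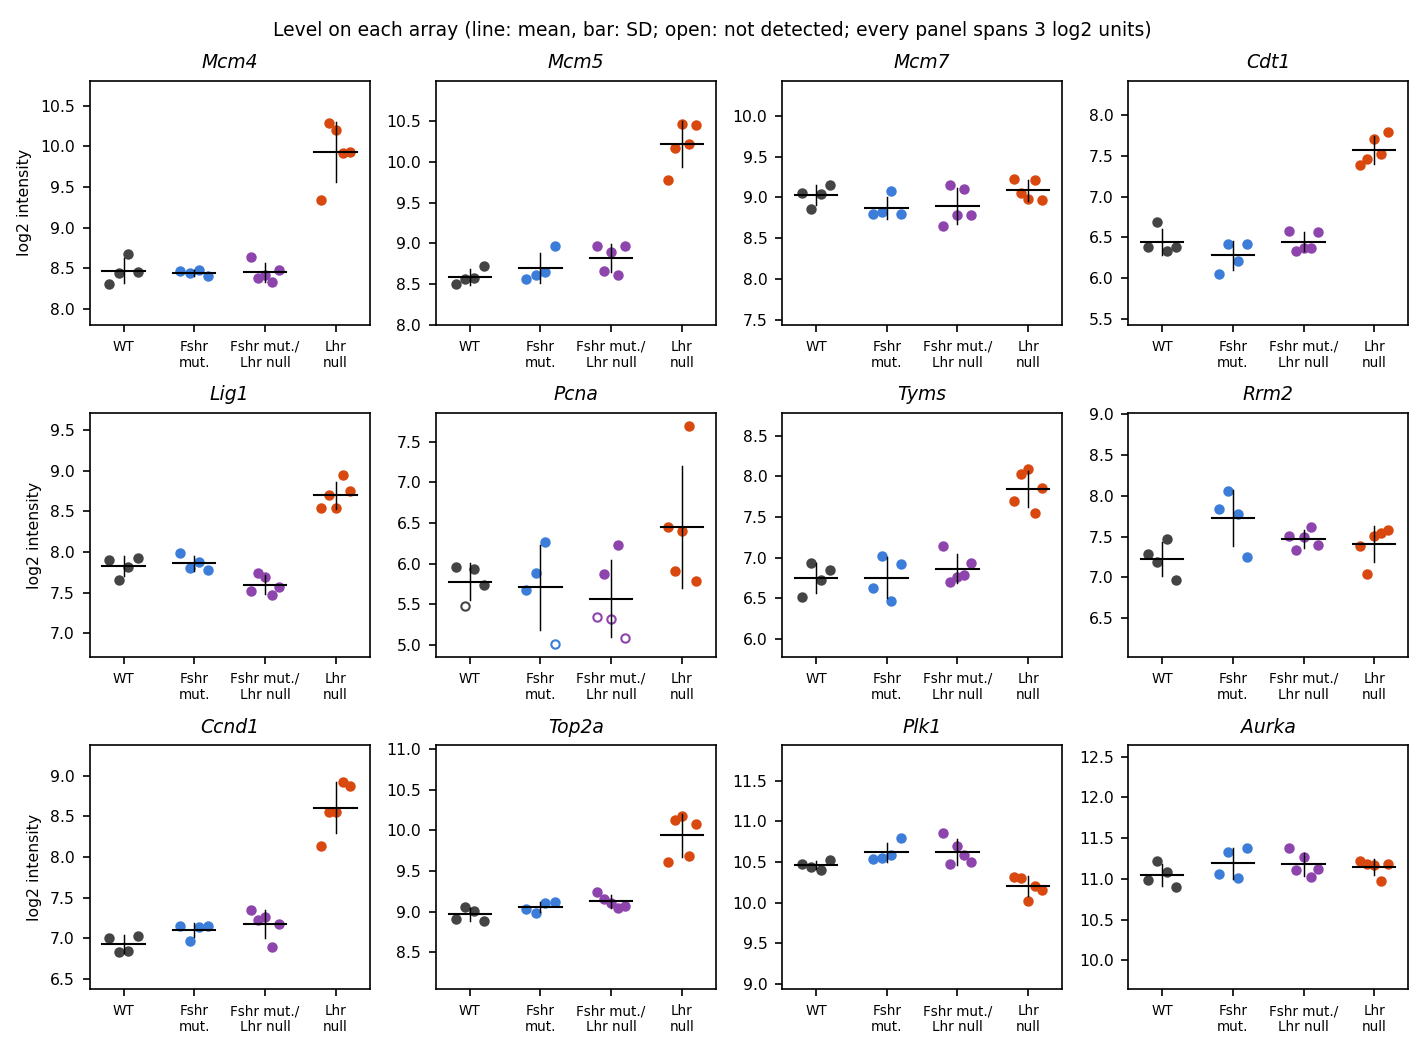
Each point is the log2 intensity of 1 gene on 1 array, by group, with the group mean (line), its SD (bar) and open points where the probe was not detected. The Lhr null arrays stand above the other groups for Mcm4, Mcm5, Cdt1, Lig1, Tyms, Ccnd1 and Top2a, overlap them for Mcm7, Pcna, Rrm2 and Aurka, and lie below them for Plk1.

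The next comparison asks what the Fshr mutation changed on the Lhr null background. It shares the Lhr null arrays with the previous one, so the values of both are given side by side only. In the double mutant 27 of the 38 genes were lower than in Lhr null, 1 (Plk1) was higher and 10 did not pass, with a median of -0.54. Over all genes 74.2% were called, 29.3% higher and 45% lower, and the median was -0.21. With cyclic loess, which took the median of all genes to -0.05 and their higher calls from 39.4% to 48.3% of calls, 4 members were higher and 23 lower. Without normalization between arrays 0 were higher and 26 lower, with 27.9% of all calls higher. Of the 38 genes 8 were at least 2-fold lower (11.3% of all genes), and in 21 no double mutant array reached the Lhr null range from below (35.3% of all genes). Without the library labelled Fshr mutant/Lhr null replicate 2, 27 genes were again lower and 1 higher, over a background of 72.4%: Mcm7 passed (-0.26, adjusted p = 0.039) and Bub1b did not (-0.23, adjusted p = 0.0972).

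All 21 called genes of the 27 in the replication classes were lower, with a median over the 27 of -0.73. Over the whole array 45% of genes were lower, and the median was -0.21. Mcm4 differed most: its double mutant arrays at 8.64, 8.38, 8.42, 8.34 and 8.49 lay 2.8-fold below Lhr null (-1.48 ± 0.14, SE, adjusted p = 3.65e-08). Mcm5 was 2.64-fold, Mcm2 2.4-fold, Mcm6 2.19-fold and Cdt1 2.19-fold lower. Lig1 had the lowest adjusted p of the 38 genes (1.73e-08). Its double mutant arrays lay at 7.52, 7.75, 7.69, 7.47 and 7.56, 2.14-fold below Lhr null (-1.10 ± 0.09, SE), with no overlap. Pcna, which did not pass against wild type, was lower here (-0.88 ± 0.31, SE, adjusted p = 0.0165), with 2 of 5 double mutant arrays detected and overlapping groups. The replication genes that did not pass were Mcm7, Cdc6, Pole, Rfc2, Rfc3 and Rrm2.

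Among the 11 mitotic genes and cyclins 6 were lower and 1 higher, with a median of -0.27. This is near the whole array, where 45% of all genes were lower, 29.3% higher and the median was -0.21. Ccnd1 lay at 7.34, 7.23, 7.26, 6.89 and 7.17 in the double mutant, 2.69-fold below Lhr null (-1.43 ± 0.13, SE, adjusted p = 2.83e-08). Top2a was 1.75-fold lower, at 9.24, 9.15, 9.11, 9.05 and 9.07, and no array of the double mutant reached the Lhr null range. Cdk1 (-0.55 ± 0.10, SE), Cdc20 (-0.49 ± 0.08, SE) and Ccnd2 (-0.75 ± 0.24, SE) were lower too. Plk1 lay at 10.85, 10.48, 10.70, 10.59 and 10.50 in the double mutant and was higher by 0.42 ± 0.09 (SE, adjusted p = 0.000336), with no overlap. Aurka (0.03 ± 0.10, SE) and Birc5 (-0.02 ± 0.10, SE) did not pass. The markers moved here as well: all 12 tested markers of elongating spermatids were higher and 9 of 10 spermatogonial markers lower, with summed intensities of 2317 to 2572 in the double mutant for the latter. Of 11 Sertoli cell markers 9 were lower and 2 higher (median -1.21), and of 11 spermatocyte markers 8 were lower (-0.96). Of 4 myoid markers 3 were lower (-0.95), and of 9 ribosomal and housekeeping genes 7 were lower and 1 higher (-0.61). Lower levels were thus not particular to spermatogonial markers.

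Against wild type the double mutant showed 0 of 38 genes past the limma test, where 1.28% of all genes passed. Leaving out the library labelled Fshr mutant/Lhr null replicate 2, again 0 of 38 passed, and 1.69% of all genes. At an unadjusted p under 0.05 there were 4 (Gins1, Rfc2, Rfc4 and Lig1), against 16.3% of all genes, and the lowest adjusted p was 0.149, for Rfc2. Every 95% interval of the 38 differences lay between -0.90 and 0.61, and without Pcna and Ccnd2, the genes with the widest spread, between -0.60 and 0.61. For Mcm4 the difference was -0.02 ± 0.14 (SE, 95% interval -0.32 to 0.28) and for Mcm5 0.23 ± 0.13 (SE, -0.05 to 0.51). Differences within these intervals cannot be resolved with 4 and 5 arrays. Rfc4 was the gene in which all double mutant arrays (8.73, 8.73, 8.75, 8.85 and 8.85) lay below all wild type arrays (9.11, 9.19, 9.00 and 9.15), a difference of -0.33 ± 0.13 (SE, adjusted p = 0.209), and 4.02% of all genes lay in this way. With array weights, Rfc2 (0.34, adjusted p = 0.0274) and Rfc4 (-0.34, adjusted p = 0.0378) passed.

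The Fshr mutant alone showed 0 of 38 genes past the limma test against wild type, with 0% of all genes called and 4.05% at an unadjusted p under 0.05. Rrm2 and Rfc2 were the members at that unadjusted level. Fshr itself, at 8.47 to 8.77 in Fshr mutant and 5.17 to 5.88 in wild type arrays, was not called. The spread is estimated over all groups, including the double mutant library replicate 2. Without that library 3 of all genes (0.0278%) were called, all higher, and again 0 of the 38. This was not particular to that library: 4 of all genes were called without double mutant replicate 5, and 2 without replicate 4. A lack of calls here therefore does not show a lack of change. Rrm2 lay at 7.28, 7.19, 7.47 and 6.96 in wild type and at 7.83, 8.06, 7.78 and 7.25 in Fshr mutant arrays, with overlap, a difference of 0.51 ± 0.16 (SE, adjusted p = 1) and a 95% interval of 0.18 to 0.84. The dimmer probes of Rrm2 differed by 0.005 and 0.32 in this comparison and were not called. The intervals of the 38 genes lay between -0.91 and 0.84. Plk1 had every Fshr mutant array above every wild type array, which 1.97% of all genes had, and differed by 0.16 ± 0.10 (SE), not past the test. Ccne1 was ordered in the same way, but it was detected on 0 of 4 wild type and 1 of 4 Fshr mutant arrays, so that its order and difference are not read. The median of the 38 differences was 0.03.

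Whether the Fshr mutation acted differently with and without Lhr was tested by the interaction, the difference between double mutant and Lhr null minus that between Fshr mutant and wild type. It was negative past the limma test in 23 of 38 genes and positive in 0, against 60.1% of all genes called, 36.9% negative and 23.2% positive. The median was -0.57, against -0.22 over all genes. With cyclic loess 18 were negative and 2 positive (Aurkb and Plk1), the positive share of all calls being 38.6% with quantile normalization and 50.3% with cyclic loess. Of the 23, 19 were among the 27 replication genes and 4 among the 11 mitotic genes and cyclins (Ccnd1, Cdk1, Cdc20 and Top2a). Ccnd1 had the largest interaction, -1.60 ± 0.19 (SE, adjusted p = 4.24e-06), followed by Mcm5 with -1.51 ± 0.19 and Mcm4 with -1.46 ± 0.20 (SE). Without that double mutant library (replicate 2) the count was 23 as well, over a background of 58.5%.

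**Figure D3:**
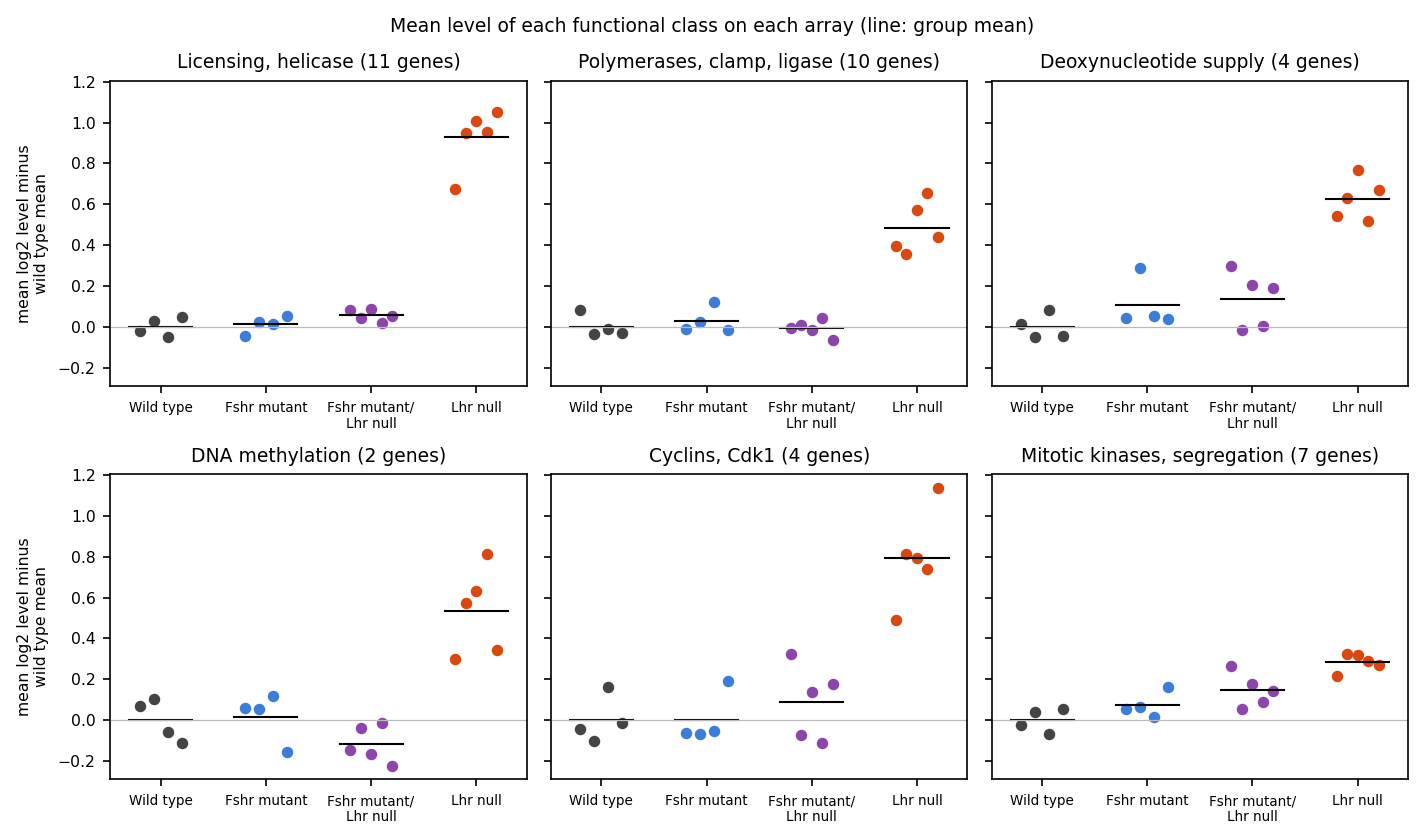
Each point is 1 array, and its height is the mean log2 level of the tested genes of a functional class minus the wild type mean, with a line at the group mean. In all panels but the last the Lhr null arrays stand clear of the other groups, and in the last, mitotic kinases and segregation, the lowest Lhr null array (0.22) lies below the highest double mutant array (0.27).

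As a description, the mean log2 level of each class relative to wild type was computed for each array. For licensing and helicase the Lhr null arrays ran from 0.67 to 1.05 and the double mutant arrays from 0.02 to 0.08, against -0.05 to 0.05 in wild type. For the polymerase class they ran from 0.36 to 0.66 and from -0.06 to 0.04. For the mitotic kinase class they ran from 0.22 to 0.32 and from 0.05 to 0.27. The Lhr null arrays were not alike in the first class: replicate 1 was lowest at 0.67, and the other 4 lay at 0.95 to 1.05. Replicate 1 was also the Lhr null array with the highest summed intensity of elongating spermatid markers, 69297 against 26353 to 46753, and the lowest of spermatogonial markers, 5226 against 5770 to 7647. The same array was the lowest of its group for summed Sertoli cell (42231), myoid (5477), spermatocyte (38364) and housekeeping markers (28846). It was the highest for round spermatids (23939) and macrophages (2319). Its position was thus not particular to spermatogonial and elongating spermatid markers, and the cause was not tested. The double mutant library with a wild type level on the brighter Fshr probe (replicate 2) had a mean over all 38 genes of 0.013, the lowest of its group. The other 4 double mutant arrays lay at 0.020 to 0.13 and the wild type arrays at -0.0087 to 0.011. By class, double mutant replicate 2 was not always lowest of its group. It was lowest for the mitotic kinase class (0.05) and deoxynucleotide supply (-0.017), but not for licensing and helicase (0.045) or the polymerase class (0.0076).

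Other genes of the pathway give the setting. Of 29 tested replication genes outside the list, 20 rose and 3 fell in Lhr null, where 44.2% of all genes rose and 27% fell. Rpa2, a subunit of the single-strand binding protein, rose by 1.27, Mcmbp, a partner of the Mcm complex, by 1.18, and Pole4, a small subunit of polymerase epsilon, by 1.16 on the log2 scale. Rnaseh2a, the catalytic subunit of ribonuclease H2, fell by 1.16, Chaf1a, a chromatin assembly factor, by 0.46 and Pold4, a small subunit of polymerase delta, by 0.38. Of 36 further mitotic genes 19 rose and 2 fell, beside the same shares of all genes. Cenpa, the centromeric histone, rose by 1.66, Kif23, a motor of cytokinesis, by 1.38 and Mad2l1, of the spindle checkpoint, by 1.19, while Cdc25c, the phosphatase that activates Cdk1, fell by 1.12 and Cdca5, which protects sister cohesion, by 0.23. In the double mutant against Lhr null the counts were 3 higher and 17 lower of 29, and 6 higher and 25 lower of 36, where 29.3% of all genes were higher and 45% lower.

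Of 29 tested regulators of the cycle 16 rose and 7 fell in Lhr null, shares near those of all genes (44.2% and 27%). Cdk4, the partner of D cyclins, rose by 1.29, Cdk2, the partner of E cyclins, by 1.10 and E2f2, an activating E2F factor, by 1.09. Rbl2, a pocket protein of the Rb family, fell by 2.37, Foxm1, a transcription factor of G2 and mitotic genes, by 1.29 and Skp2, a subunit of a ubiquitin ligase, by 1.08. In the double mutant against Lhr null 8 regulators were higher and 15 lower, also near the 29.3% and 45% of all genes. Of 10 genes of meiotic division and cohesion 5 rose and 2 fell in Lhr null: Ccnb3, cyclin B3, rose by 1.29, Cpeb1 by 0.54 and Spdya by 0.44, and Rec8, the meiotic cohesin, fell by 0.60 and Ccna1, the germ cell cyclin A, by 0.44. In the double mutant against Lhr null 2 of them were higher and 5 lower.

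**Figure D4:**
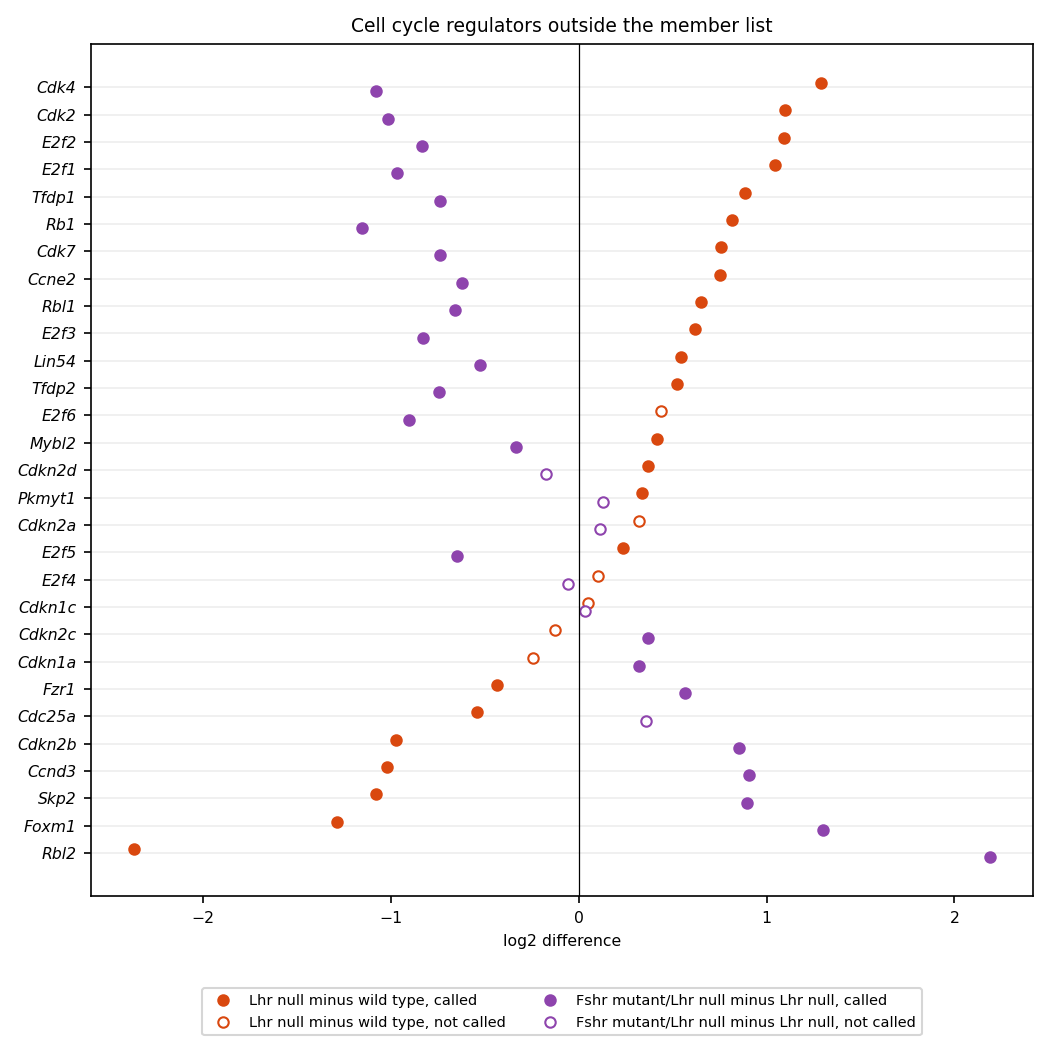
Each row is 1 of 29 cell cycle regulators outside the list, ordered by its log2 difference between Lhr null and wild type, with the difference between Fshr mutant/Lhr null and Lhr null beside it and filled points for an adjusted p under 0.05. Cdk4 (1.29) stands at the top and Rbl2 (-2.37) at the bottom, and the Lhr null arrays enter both differences.

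Probes of a gene were compared where several passed, in 15 of the 38 genes. In no comparison were probes of 1 gene called in opposite directions. All probes had the same call in 11 of 15 genes for Lhr null against wild type. They did so in 8 of 15 for the double mutant against Lhr null, and in 8 of 15 for the interaction. The probes of Mcm6 differed by 0.97, 1.01 and 1.65 in Lhr null against wild type, all called higher. Those of Rfc2 did not share a call. Its 4 probes differed by 0.16, 0.04, -0.09 and -0.30 in Lhr null against wild type, the last of them called lower. Between double mutant and Lhr null they differed by 0.14, 0.29, 0.41 and 0.64, and 3 were called higher. The brightest probe of Rfc2, the first in each series, was called in neither. The second probes of Rrm1, Bub1b and Rfc4 were not called in Lhr null against wild type (-0.0016, 0.22 and 0.19). Between double mutant and Lhr null those of Rrm1 (0.12) and Bub1b (-0.30) were not called either. The dimmest passing probes of Cdc20 (-0.20) and Gins2 (-0.21) were not called there, while the other passing probes of these genes were called lower. Birc5 had 3 probes that differed by 0.19, 0.03 and 0.01 in Lhr null against wild type, none called. Between double mutant and Lhr null they differed by -0.02, 0.21 and 0.31, and the last was called higher. The 3 probes of Rrm2 differed there by 0.06, 0.15 and 0.35, and the last, the dimmest, was called higher.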

How the data were processed

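Total RNA of 18 testis samples was measured on Illumina bead arrays, summarised with GenomeStudio 1.7.0 per the submitters' processing notes. The main deposited table is unnormalized and holds, per the file headers, a linear intensity, a detection p-value, a bead count and a bead standard error per array and probe (45281 probes). The authors' processed intensities, deposited as another table with a normalization not given in the sources used here, served as an alternative. The number of arrays limits the precision.

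Intensities were background-corrected with limma 3.58.1 in R 4.3.3 (normexp, background inferred from the detection p-values, offset 16), quantile normalized and taken to log2. Folds are on this offset scale, which understates changes of dim probes. The filter kept probes with a detection p below 0.01 on 4 arrays or more, and the brightest probe stood for a gene (10798 genes). Gene names came from the platform annotation, updated through gene identifiers: 34885 probes had 1 symbol, 18 several and 10378 none. A model of 4 group means was fitted with lmFit and eBayes on all 18 arrays, so that groups share 1 estimate of spread. Calls use a Benjamini-Hochberg adjusted p under 0.05 over all genes tested, and errors are moderated standard errors. The code was tested on simulated data. The alternatives were other normalizations, offsets, filters, probe rules, thresholds and weights, a fit on the groups compared only, a replicate block and leaving out each array.

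Every tested member is named. From each pathway list the 3 called genes farthest up and the 3 farthest down in Lhr null are named (all that were called, where fewer). Members and lists were chosen with earlier results of these data known. Promoter windows are from RefSeq. No genome build is named for the array, so no gene coordinates other than those of the windows are given.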

Additional observations from a re-analysis of the deposited data

Results flagged for a closer look

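The effect of the Fshr mutation differed between the backgrounds with and without Lhr in 23 of the 38 genes by the limma interaction term, where 60.1% of all genes were called. The log2 interactions of the replication genes were Mcm5 (-1.51), Mcm4 (-1.46), Mcm6 (-1.34), Mcm2 (-1.22), Lig1 (-1.13), Pold1 (-1.01), Tyms (-0.98), Cdt1 (-0.96), Mcm3 (-0.95) and Dnmt1 (-0.83), and Mcm10 (-0.76), Tk1 (-0.74), Rfc4 (-0.68), Gins2 (-0.63), Rfc5 (-0.59), Gins1 (-0.59), Uhrf1 (-0.51), Fen1 (-0.40) and Pold2 (-0.39) for the others. Those of the mitotic genes and cyclins were Ccnd1 (-1.60), Top2a (-0.90), Cdc20 (-0.54) and Cdk1 (-0.50). The adjusted p-values ran from 4.24e-06 for Ccnd1 to 0.0427 for Pold2. These are values of the brightest probe of each gene. A further probe of Mcm6 (-0.42), Lig1 (-0.43), Mcm10 (-0.44), Rfc4 (-0.54), Gins2 (-0.26) and Cdc20 (-0.41) was not called. Other further probes of Mcm6, Lig1, Gins2 and Cdc20 were called negative. For Rfc2, not called on its brightest probe, the dimmest probe was called positive (0.45).

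In 10 of 152 screens, 1 for each gene and group, a single array lay apart from the others of its group, by a gap in its log2 level beyond Dixon's limit. Chance gives about 1 in 20 such cases. In the Lhr null group Mcm6 was at 8.80 on replicate 4 and at 8.58 to 8.64 on the others, Cdk1 was at 10.15 on replicate 5 and at 9.69 to 9.81 on the others. In that group also Aurka was at 10.97 on replicate 4 and at 11.16 to 11.22 on the others. In the Fshr mutant group Mcm7 was at 9.08 on replicate 3 and at 8.79 to 8.82 on the others, Pole was at 8.01 on replicate 4 and at 8.42 to 8.51 on the others. In that group also Dnmt1 was at 7.81 on replicate 4 and at 7.98 to 7.99 on the others, Ccnd1 was at 6.97 on replicate 2 and at 7.14 to 7.15 on the others. In the wild type group Cdt1 was at 6.68 on replicate 2 and at 6.33 to 6.38 on the others, Gins2 was at 7.68 on replicate 3 and at 8.11 to 8.16 on the others. In that group also Pole was at 7.95 on replicate 3 and at 8.46 to 8.55 on the others.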

How the results depend on the processing

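Over 12 other settings and 18 fits without 1 array each, the members called in Lhr null against wild type numbered 19 (no normalization between arrays) to 28, against 28, and 25 to 28 when 1 array was left out. For the double mutant against Lhr null they numbered 24 (adjusted p under 0.01) to 28 and 26 to 28, for the interaction 16 (no normalization) to 25 (array weights) and 21 to 24, and for the Fshr mutant against wild type 0 throughout. For the double mutant against wild type array weights called 2 (Rfc2 at 0.34 and Rfc4 at -0.34), and every other setting and every left-out array 0. The call was the same under every setting run in 24, 25 and 27 of 38 genes for the first 3. This tally leaves out the stricter threshold of 0.01. Uhrf1 turned to -0.082 (adjusted p = 0.755) in Lhr null against wild type without normalization between arrays, and the cause was not tested. The labels do not say whether arrays with the same replicate number share a litter, batch or day. Same-numbered arrays of 2 groups correlated in their deviations from the group means above 0.1 in 5 of 25 pairs (range -0.32 to 0.22). Such correlations cannot settle whether the numbers pair the arrays. With the number as a replicate block the counts were 27 for Lhr null versus wild type, 27 for the double mutant versus Lhr null, 23 for the interaction and 0 for both others. The slide as a block was not run, since the headers give no slide. The fit on only the groups compared cannot give an interaction.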
